A study of Mus musculus with 6 samples.

Results

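The MYC and MAX network is the family of transcription factors that dimerise with MAX or with its relative MLX and bind the same short DNA element, the E-box. Its 10 members examined here are Myc, Mycn, Max, Mxd1, Mxd3, Mxd4, Mxi1, Mnt, Mga and Mlx. They were chosen by name, as the rows of the expression table whose Ensembl identifier maps to one of those symbols, and all 10 were found among the 39179 gene identifiers listed. The table held 6 RNA-seq libraries from B cells sorted from ileal Peyer's patches, where gut antigens keep germinal centre (GC) reactions running. The 3 GC libraries came from B cells gated as Fas+GL7+ and the 3 naive libraries from resting B cells gated as Fas-GL7-. All were wild-type C57BL/6 littermates, female, at 12 weeks of age, with no engineered allele and no treatment in either group, and each library was made from a pool of mice. Nothing in the labels ties a GC pool to the naive pool of the same number.

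MYC needs MAX to bind DNA, and MYC-MAX dimers recruit histone acetyltransferases and elongation factors to genes of growth, ribosome production and nucleotide synthesis. The MXD proteins (Mxd1, Mxi1, Mxd3, Mxd4) and MNT compete for MAX and bring SIN3 and histone deacetylases to the same elements. MGA also pairs with MAX, within a Polycomb complex called PRC1.6, and MLX pairs with MONDOA (Mlxip) or with some MXD proteins. In germinal centres MYC protein is known mainly from a small fraction of light zone cells that have received T cell help, whereas most dark zone cells divide with little of it.

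Expression is given as TPM, each transcript's length-corrected share of its library scaled to a fixed total of 1000000, so that levels of different genes can be set side by side. Read depth was estimated from the spacing of low values at about 9750000 to 16200000 reads per library. At these depths 1 read on a transcript of 1 kb effective length (its length less the mean fragment length) equals 0.0845 to 0.140 TPM. Sort labels held: all 7 GC markers were higher in GC pools (summed level 1689 to 1852 TPM against 55.3 to 57.5 in naive pools) and all 5 measured naive markers were lower (107 to 117 against 1349 to 1408). All 15 cell cycle genes were higher in GC pools, with a summed level of 2929 to 3013 TPM against 195 to 200. T cell markers summed to at most 4.72 TPM in any pool (Cd3d was at 0 in a pool of each group, Cd8a and Trac in a naive pool) and the 6 myeloid markers to at most 17.3 TPM. Of the 2 myeloid markers tested, Cd68 was called higher in GC cells and Lyz2 was not called (1.28 against 3.30 TPM), while Itgam (0.106 against 1.02 TPM) and Adgre1 (0.0461 against 0.696 TPM) were under the filter. Epithelial markers summed to 52.1, 113 and 57.7 TPM in GC pools 1, 2 and 3 and to 169, 135 and 131 TPM in naive pools 1, 2 and 3. In such bulk libraries, fewer cells of a type and less RNA per cell cannot be told apart.

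Of the 10 members, 9 passed the filter on low values (1 TPM or more in 3 or more pools) and entered the limma fit over 12785 genes. In GC B cells 2 were higher (Mxd3 and Max), 5 were lower (Mxd1, Mxi1, Mnt, Mga and Mlx) and 2 were not called (Myc and Mxd4), at an adjusted p under 0.05. Calls were common across the transcriptome: 35.5% of tested genes were higher and 30.1% were lower. Values of all GC pools lay above all naive pools for Mxd3 and Max, as for 37.8% of tested genes, and below them for the 5 lower members, as for 32.8% of tested genes. The median difference over all tested genes was 0.03 on the log2(TPM + 1) scale. That is the scale of every log2 difference given here, except under alternatives that changed the pseudocount or the scaling. The rise of Mxd3 was far larger than any other change in the network, while the other 6 calls were differences of less than 3-fold in mean TPM.

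**Figure D1:**
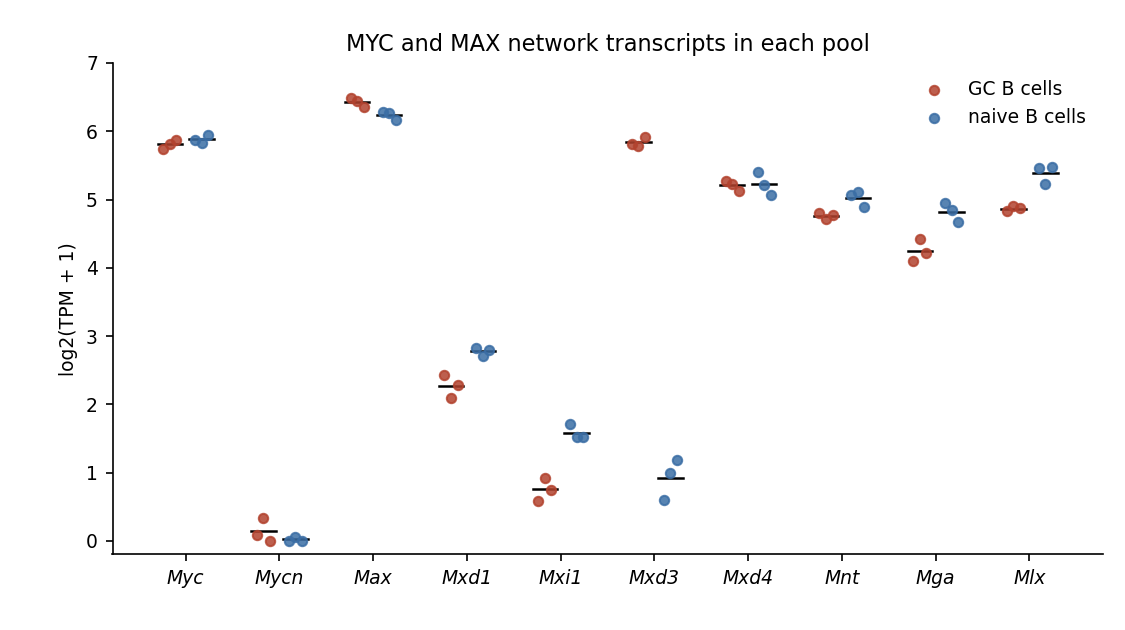
Level of each of the 10 members as log2(TPM + 1) in each pool, 3 GC and 3 naive, with 1 point per pool. Mxd3 went from 0.51 to 1.28 TPM in naive pools to 54.4 to 59.1 TPM in GC pools, while the Myc values of the groups overlapped.

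Myc itself, the activator that gives the network its name (chr15:61985341-61990361, build GRCm38), was abundant in both populations. It measured 52.4, 55.4 and 57.4 TPM in GC pools 1, 2 and 3 and 57.9, 56.0 and 60.9 TPM in naive pools 1, 2 and 3. The groups overlapped, since GC pool 3 exceeded naive pool 2. Mean levels were 55.1 ± 2.54 TPM in GC and 58.2 ± 2.47 TPM in naive cells (SD, n = 3 pools each). The log2 difference of GC minus naive was -0.08 with a 95% interval of -0.22 to 0.06 (limma adjusted p = 0.281), an interval that spans 0.857-fold to 1.05-fold on the TPM + 1 scale. Among tested genes Myc stood at percentile 76.3 of GC means and percentile 79.4 of naive means. Scaling by quantiles was the exception among 14 alternatives, giving a difference of -0.20 at an adjusted p of 0.0328.

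Mycn, the paralogue best known from embryonic and neural tissue, was at the edge of detection. It was listed at 0.06, 0.26 and 0 TPM in GC pools and at 0, 0.04 and 0 TPM in naive pools. It failed the filter, and no fold is given. Of the MYC paralogues measured, Myc alone exceeded 1 TPM in any pool.

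Max, the obligate partner (chr12:76937269-76962323), was the most abundant member in both populations. It measured 88.7, 86.3 and 80.6 TPM in GC pools and 76.6, 75.7 and 70.7 TPM in naive pools, so the lowest GC value stood just above the highest naive value. The means of 85.2 ± 4.17 and 74.3 ± 3.20 TPM (SD, n = 3) differed by 14.6%, with a log2 difference of 0.19 ± 0.06 (SE, limma adjusted p = 0.0251). This small rise was not robust. Its adjusted p ranged from 0.0227 to 0.442 over the 14 alternatives, and the call was lost on the FPKM scale (0.0524), under quantile scaling (0.442), under median ratio scaling (0.0701), without the trend (0.0507), and without GC pool 1 (0.0836), GC pool 2 (0.0727) or naive pool 3 (0.0574). All of these alternatives kept Max on the higher side.

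The MXD repressors moved in different directions. Mxd3 (chr13:55325170-55329900), an MXD protein known from proliferating progenitor cells in S phase, measured 55.1, 54.4 and 59.1 TPM in GC pools and 0.51, 0.99 and 1.28 TPM in naive pools. Every GC pool was above every naive pool by more than an order of magnitude. The means were 56.2 ± 2.55 and 0.926 ± 0.386 TPM (SD, n = 3), a ratio of 60.7 in mean TPM. On the log2(TPM + 1) scale the difference was 4.91 ± 0.16 (SE), with a 95% interval of 4.52 to 5.30 and a limma adjusted p of 1.22e-06, the 88th largest rise of 12785 tested genes. Mxd3 passed the filter through its GC pools, with 1 naive pool at 1 TPM or more, so a difference was built into its being tested. The log2 difference depends on the pseudocount because the naive level is near 1 TPM, and it was 5.86 with a pseudocount of 0.1. Mxd3 and its neighbour Prelid1, a mitochondrial lipid transfer protein gene, overlap by 103 bases in the RefSeq annotation, and reads there may have been split between them. Prelid1 averaged 299.9 TPM in GC and 224.5 TPM in naive pools, and its part in the Mxd3 values was not tested.

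Mxd1 and Mxi1, the MXD proteins classically linked to differentiation and cell cycle exit, were both lower in GC cells. Mxd1 measured 4.37, 3.28 and 3.86 TPM in GC pools and 6.08, 5.52 and 5.95 TPM in naive pools, without overlap. Its mean was 1.52 times as high in naive cells, with a log2 difference of -0.51 ± 0.12 (SE, limma adjusted p = 0.0101). Mxi1 measured 0.50, 0.90 and 0.68 TPM in GC pools and 2.27, 1.86 and 1.88 TPM in naive pools, again without overlap. The naive mean of 2.01 ± 0.228 TPM was 2.89 times the GC mean of 0.693 ± 0.202 TPM (SD, n = 3), and the log2 difference was -0.83 ± 0.15 (SE, limma adjusted p = 0.00276). Mxi1 passed the filter through its naive pools alone, with no GC pool at 1 TPM, so a difference was built into its being tested. With a pseudocount of 0.1 its log2 difference was -1.44. The annotated span of Mxd1 shares 9111 bases with Gm38850 and that of Mxi1 shares 16740 bases with Gm30541. Both are long noncoding RNA genes without a level here, and their part in the Mxd1 and Mxi1 values was not tested.

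Mxd4, the remaining MXD gene, was moderately expressed and did not separate the groups. It measured 37.5, 36.6 and 34.0 TPM in GC pools and 41.5, 36.1 and 32.5 TPM in naive pools, with the naive values spanning the GC values. Its log2 difference was -0.02 with a 95% interval of -0.26 to 0.22 (limma adjusted p = 0.891).

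**Figure D2:**
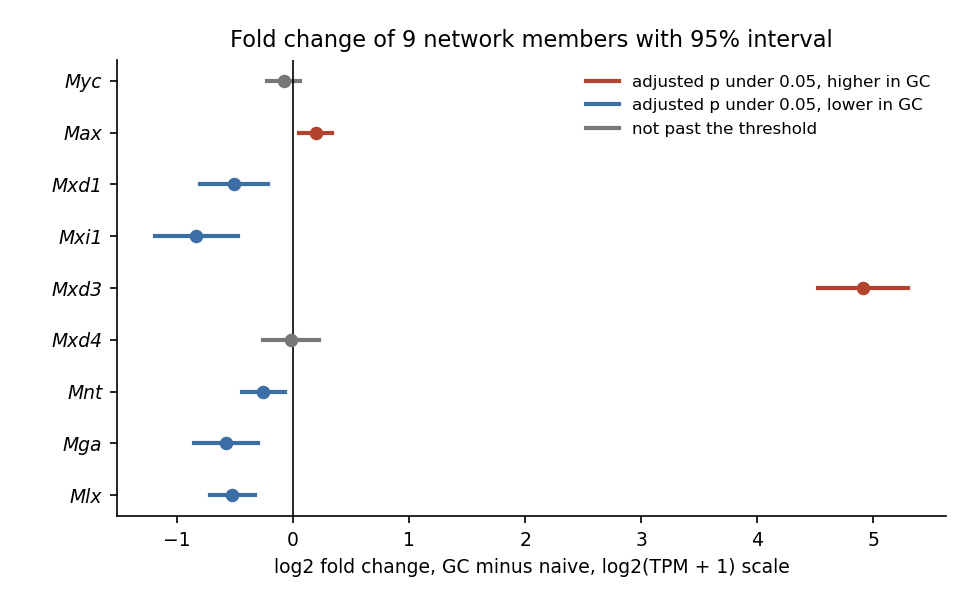
Log2 difference of GC minus naive on the log2(TPM + 1) scale for the 9 tested members, with the 95% interval of the limma coefficient. Mxd3 lies at 4.91, Max at 0.19, and the intervals of Myc and Mxd4 include 0.

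MNT, a broadly expressed MAX partner that represses in both resting and dividing cells, was slightly lower in GC cells. Mnt (chr11:74830806-74845725) measured 26.9, 25.4 and 26.2 TPM in GC pools and 32.4, 33.6 and 28.7 TPM in naive pools, so the groups did not overlap. The naive mean was 1.21 times the GC mean and the log2 difference was -0.26 ± 0.08 (SE, limma adjusted p = 0.0235). This call was lost with a replicate block (adjusted p = 0.0511) and without GC pool 2 (0.0724), GC pool 3 (0.0603), naive pool 1 (0.073) or naive pool 2 (0.0697), while the direction held throughout.

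Mga, which encodes the largest protein of the network and carries a second, T-box DNA-binding domain, was lower in GC cells. It measured 16.1, 20.4 and 17.6 TPM in GC pools and 29.8, 27.6 and 24.4 TPM in naive pools, with a gap between the groups. The means were 18.0 ± 2.18 and 27.3 ± 2.71 TPM (SD, n = 3), a log2 difference of -0.58 ± 0.11 (SE, limma adjusted p = 0.00436). The annotated span of Mga shares 638 bases with the pseudogene Gm13998, which averaged 0 TPM in both groups.

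Mlx, the partner of the glucose-responsive Mondo factors, was likewise lower. It measured 27.4, 28.8 and 28.3 TPM in GC pools and 43.0, 36.6 and 43.4 TPM in naive pools. The means of 28.2 ± 0.712 and 41.0 ± 3.81 TPM (SD, n = 3) gave a log2 difference of -0.52 ± 0.08 (SE, limma adjusted p = 0.00144). The annotated span of Mlx shares 67 bases with Psmc3ip, a recombination gene that measured 31.8 TPM in GC and 4.84 TPM in naive pools, and its part in the Mlx values was not tested.

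Library composition moved with these calls. Cell cycle genes were higher in the same GC pools as Mxd3, and their part in its rise was not tested. Of 8 epithelial markers 7 were tested, of which 5 were called lower and 1, Krt18, higher. The lower count was 1 without GC pool 1, 2 without naive pool 1, 3 without GC pool 3 and 3 without naive pool 3. No epithelial marker was at 0 in any pool, and their sum was lower in all GC pools, as were Mxd1, Mxi1, Mnt, Mga and Mlx. GC pool 2 had the highest epithelial sum of the GC pools (113 TPM) and among them the lowest Mxd1 and Mnt but the highest Mxi1, Mga and Mlx. The part of epithelial RNA in these differences was not tested.

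The order of levels shows where Mxd3 came to stand. In GC cells the means ran Max, Mxd3, Myc, Mxd4, Mlx, Mnt, Mga, Mxd1, Mxi1 and Mycn, and among neighbours in that order the pool values overlapped for Mxd3 and Myc alone. In naive cells the order was Max, Myc, Mlx, Mxd4, Mnt, Mga, Mxd1, Mxi1, Mxd3 and Mycn. There the values overlapped between Mlx and Mxd4, between Mxd4 and Mnt, and between Mnt and Mga. Mxd3 thus moved from percentile 5.89 of naive means to percentile 76.8 of GC means among tested genes.

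Sums and ratios of TPM describe the makeup of the network transcripts, and no test was run on them. The MXD genes together measured 97.5, 95.2 and 97.7 TPM in GC pools and 50.3, 44.4 and 41.6 TPM in naive pools. Mxd3 made up 56.5%, 57.1% and 60.5% of the GC sum but 1.02%, 2.22% and 3.07% of the naive sum. Mxd4 was the major MXD transcript in naive cells, at 82.4%, 81.2% and 78.1%, and it held 38.5%, 38.5% and 34.8% in GC cells. Thus the MXD sum was higher in every GC pool and had another leading member.

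**Figure D3:**
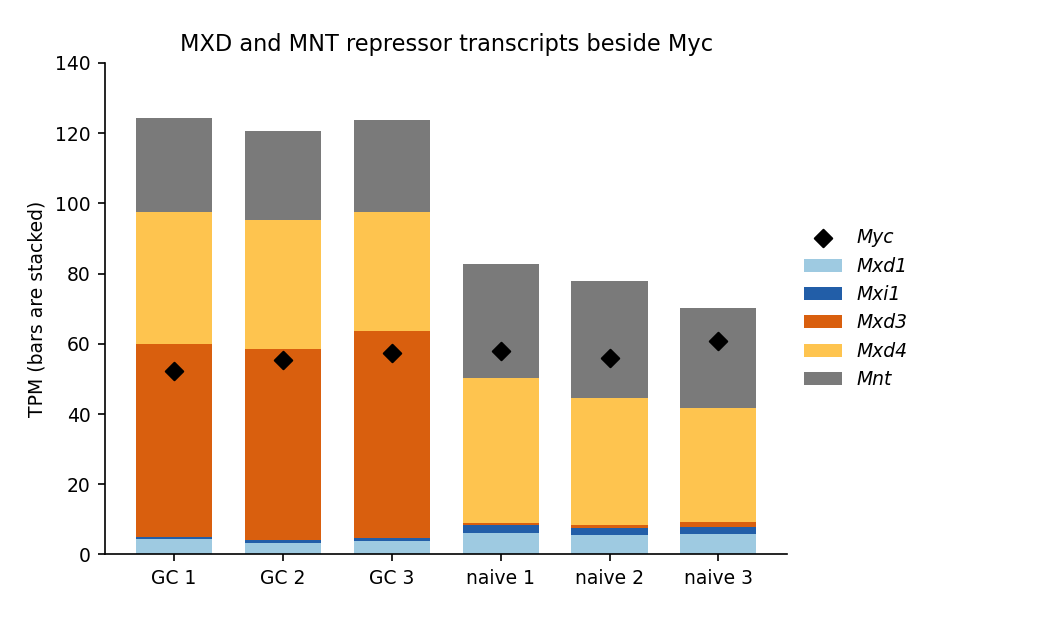
TPM of Mxd1, Mxi1, Mxd3, Mxd4 and Mnt stacked in each pool, with Myc for comparison. Mxd3 accounts for the greater height of the GC stacks, and without it the GC sums of 64.8 to 69.3 TPM lie within or below the naive sums of 69.0 to 82.2 TPM.

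Adding Mnt, the repressor sum was 123 ± 2.06 TPM in GC and 77.0 ± 6.26 TPM in naive pools (SD, n = 3). The ratio of Myc to that sum was 0.421, 0.460 and 0.464 in GC pools and 0.700, 0.718 and 0.866 in naive pools, lower in every GC pool. With Mxd3 left out of the sum, the ratio was 0.756, 0.837 and 0.886 in GC pools and 0.704, 0.727 and 0.882 in naive pools, and the groups overlapped. The separation in the ratio of activator to repressor transcripts therefore rested on Mxd3. Max per Myc transcript was 1.69, 1.56 and 1.40 in GC pools and 1.32, 1.35 and 1.16 in naive pools. Max relative to the sum of Myc, MXD and Mnt transcripts was 0.502, 0.490 and 0.444 in GC pools and 0.545, 0.565 and 0.539 in naive pools. With Mga added to that sum the ratio was 0.460, 0.439 and 0.405 in GC pools and 0.450, 0.469 and 0.454 in naive pools, and the groups overlapped. With Mxd3 left out instead, it was 0.729, 0.709 and 0.659 in GC pools and 0.547, 0.569 and 0.544 in naive pools. The order of the groups in this ratio therefore depended on which partners were counted.

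The E-box in the promoters of 3 members is shown because MYC-MAX and MXD-MAX dimers bind this element. RefSeq promoter windows of build GRCm38.p6, 250 bases before the start site, were matched for 9 members with 11 windows, and Myc had no entry. CACGTG, which reads the same on both strands, was found in the windows of Mlx, Mnt and Mxd4. Each is printed 5′ to 3′ on the strand of the gene, with the E-box in capitals.
Mlx, chr11:101087238-101087267 (+): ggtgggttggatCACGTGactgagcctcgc
Mnt, chr11:74830789-74830818 (+): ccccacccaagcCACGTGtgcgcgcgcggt
Mxd4, chr5:34187912-34187941 (-): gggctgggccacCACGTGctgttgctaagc
The element lay 40, 123 and 219 bases before the start site of the window of Mlx, Mnt and Mxd4. For Mlx and Mnt that start site is not the outermost one, since the RefSeq genes begin at 101086707 and 74830806 on chr11, and the element of Mlx lies inside the annotated gene. It was present in 27.3% of member windows, in 6.02% of all promoter windows and in 8.59% of those of tested genes. Its noncanonical form CACGCG, which reads as CGCGTG on the other strand, was found in the window of Mga. It stood in 7.62% of all windows and in 14.1% of those of tested genes. The E2F-like pattern TTTNNCGC, which reads as GCGNNAAA on the other strand, was found in the window of Mycn. That pattern stood in 4.28% of all windows and in 7.16% of those of tested genes. Each of these 2 patterns was in 9.09% of member windows. Neither Mxd3 nor Max had a match to any of these patterns, which says only that these letters are not in the windows searched. The 3 members with the canonical element behaved differently from each other, Mlx and Mnt being lower in GC cells and Mxd4 not called.

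The relatives and cofactors of the network were examined by lists that were chosen with earlier results of these data known. Each list is described by its counts and median beside the background of 35.5% higher and 30.1% lower. No test of a list was run. In the extended network, 3 of 5 tested genes were lower and 0 were higher by limma (0 also at an unadjusted p under 0.05), with a median log2 difference of -0.69. Without the filter on low values, 3 of 8 were lower and 1 was higher, with a median of -0.06. Mlxip, which encodes MONDOA, averaged 36.97 ± 1.002 TPM in GC and 60.5 ± 6.63 TPM in naive pools (SD, n = 3), a log2 difference of -0.69 (limma adjusted p = 5.58e-04). Txnip, the arrestin-like inhibitor of glucose uptake that MONDOA-MLX is known to induce, fell from 274 ± 30.2 to 83.1 ± 2.76 TPM, a log2 difference of -1.71 (adjusted p = 7.32e-06). Mycbp2, a large ubiquitin ligase, fell by 0.72 on the log2 scale. Zbtb17, which encodes the MYC partner MIZ1 (0.20, adjusted p = 0.168), and Mycbp (0.66, adjusted p = 0.238) were not called. Mycl, the third MYC paralogue, measured 0.49 to 0.80 TPM in GC pools and 0.09 to 0.26 TPM in naive pools and was not tested. Also under the filter were Mlxipl, the other Mondo factor gene (0.536 against 0.702 TPM), and Arrdc4, another MONDOA target (0.308 against 0.271 TPM), with overlapping groups.

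Other factors that bind E-boxes as basic helix-loop-helix zipper proteins went both ways, with 2 of 7 higher, 2 lower and a median of -0.03. Usf1 fell by 0.77 and Srebf2, the regulator of cholesterol synthesis, fell by 0.24 on the log2 scale. Tfap4, a MYC target that sustains lymphocyte proliferation, rose by 0.34 and Usf2 rose by 0.19.

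Of the corepressors that MXD and MNT proteins recruit, 6 of 10 were higher in GC cells and 0 were lower by limma (0 also at an unadjusted p under 0.05), with a median of 0.37. Rises were led by Sap30, a subunit of the SIN3 complex (29.1 against 8.40 TPM, log2 difference 1.68), and by the histone chaperones Rbbp7 (292 against 94.0 TPM, 1.62) and Rbbp4 (1.35). The smallest adjusted p among genes not called was that of Sin3b (0.0984). Among 15 MYC coactivators, 7 were higher and 1, the acetyltransferase gene Kat2a, was lower, with a median of 0.22. Smarca4, the ATPase of SWI/SNF remodelling complexes, rose from 51.0 to 156 TPM, and the helicase genes Ruvbl2 and Ruvbl1 rose by 1.23 and 0.97 on the log2 scale.

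Genes that control MYC protein turnover were higher in 9 of 14 cases and lower in 1, with a median of 0.70. Cip2a, an inhibitor of the phosphatase that destabilises MYC, averaged 38.4 TPM in GC and 1.57 TPM in naive pools, and the kinase Aurka averaged 52.4 and 3.60 TPM. Skp2, a ubiquitin ligase subunit that targets MYC, also rose (log2 difference 2.15, limma adjusted p = 1.13e-05), and Btrc, a subunit of another such ligase, fell by 0.76. Fbxw7, the best known ligase subunit for MYC degradation, rose by 1.31 (adjusted p = 1.47e-05) and is named here after its value was seen. Genes that stabilise MYC protein and genes that destabilise it were thus among the rises, several of which also serve mitosis or S phase.

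In the PRC1.6 list, which covers the complex that MGA scaffolds, 10 of 14 genes were higher and 1 was lower by limma, with a median of 0.36. At an unadjusted p under 0.05, 2 were lower, and the lower count ranged from 1 to 3 over the alternatives. Mga itself was also lower. Tfdp1, the E2F dimer partner, averaged 202 TPM in GC and 15.7 TPM in naive pools. Cbx3, a heterochromatin protein, and E2f6, the repressive E2F of the complex, rose by 1.61 and 1.04 on the log2 scale. Rnf2, a catalytic RING subunit, fell from 30.9 to 15.2 TPM. Ring1 was lower in all GC pools (47.4 against 63.9 TPM, log2 difference -0.455) but was not called (limma adjusted p = 0.0681). L3mbtl2 (-0.19, adjusted p = 0.119) was not called either. The list shares 3 genes with other lists.

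**Figure D4:**
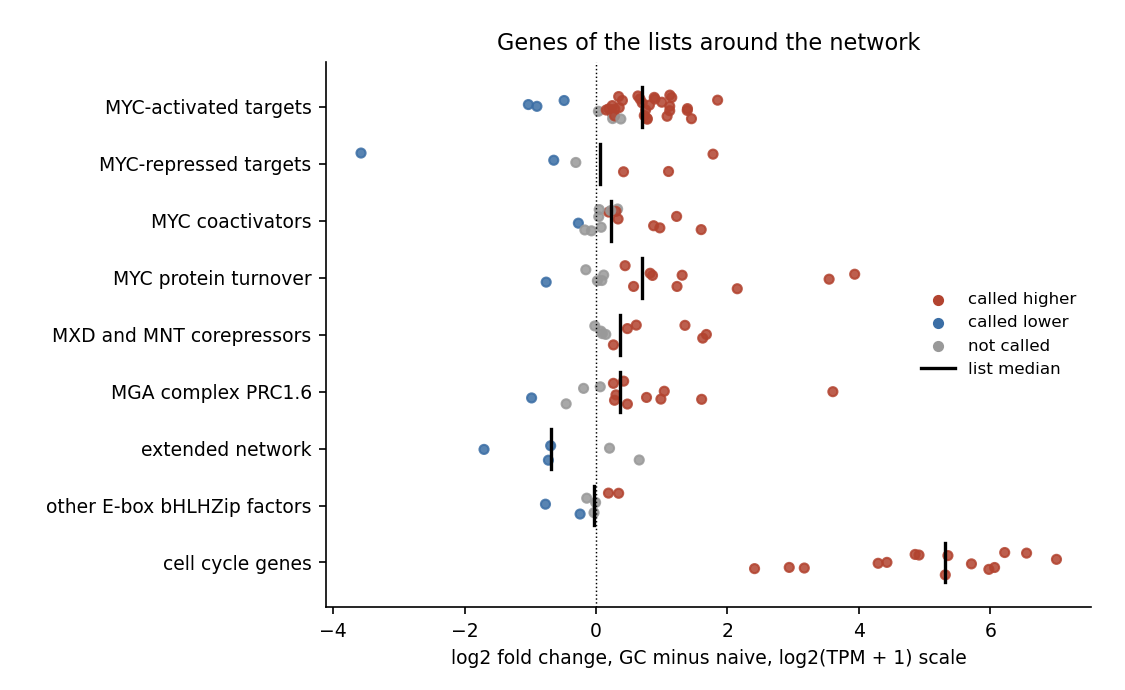
Log2 difference of GC minus naive for each tested gene of 9 lists, with the list median as a bar. The cell cycle list has the highest median (5.32), MYC-activated targets lie at 0.70 and the extended network at -0.69.

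Genes known to be activated by MYC were mostly higher in GC cells although Myc RNA was not called different. Of 35 tested targets 29 were higher (82.9%), 3 were lower and 3 were not called, with a median of 0.70. The phosphatase gene Cdc25a rose from 7.79 to 30.7 TPM (log2 difference 1.85), Odc1, the rate-limiting enzyme of polyamine synthesis, rose from 62.0 to 171 TPM (1.45), and Shmt2, of mitochondrial one-carbon metabolism, rose by 1.39. Against this direction, the glucose transporter gene Slc2a1 fell from 47.7 to 22.8 TPM, the cyclin gene Ccnd2 fell from 27.8 to 14.4 TPM, and Polr1b, of RNA polymerase I, fell by 0.49 on the log2 scale. Cad (adjusted p = 0.119) and Tert (0.229) were not called. These genes also serve growth and division in general, cell cycle genes rose in the same pools, and the part of proliferation in their rise was not tested. CACGTG stood in 27.0% of the promoter windows of this list, and the noncanonical form and the E2F-like pattern each in 21.6%. In the windows of tested genes these shares were 8.59%, 14.1% and 7.16%. The list was picked as known MYC targets, so its shares do not bear on the rise in these pools. Over all tested genes, CACGTG stood in 8.42% of the windows of genes called higher and in 8.62% of those called lower. For the noncanonical form these shares were 15.5% and 12.6%, and for the E2F-like pattern 8.68% and 5.99%.

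Genes that MYC is known to repress did not move together. Of 6 tested, 3 were higher and 2 were lower, with a median of 0.06. Cdkn1b, which encodes the cell cycle inhibitor p27, fell from 90.3 to 6.66 TPM (log2 difference -3.58, limma adjusted p = 6.07e-07) and Ccng2 fell by 0.64. Ndrg1, Cdkn1a, which encodes the inhibitor p21, and Gadd45a rose by 1.780, 1.103 and 0.418.

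**Figure D5:**
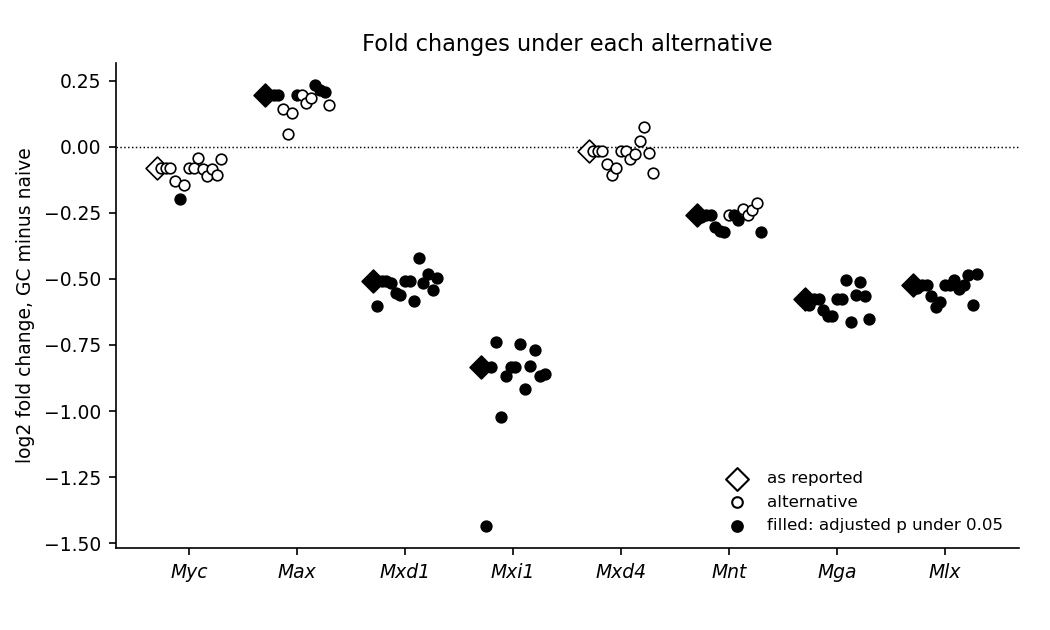
Log2 difference of GC minus naive for 8 members under each alternative processing, with a diamond for the value as reported and filled symbols for an adjusted p under 0.05. Mga, Mlx, Mxd1 and Mxi1 were lower and called in every alternative that tested them, whereas the calls of Max and Mnt came and went.

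By the root mean square difference of centred log2(TPM + 1) values over the 6 pools, among the 9023 tested genes averaging 10 TPM or more in either group, those most like Myc included Rbm25 (0.0201) and Snx14 (0.0315). Those most like Mxd3 were Bub1b (0.0764), Cep55 (0.0850) and Sh3bgrl2 (0.122), and those most like Mxi1 were Kynu (0.0239), Pdlim2 (0.0482) and Smug1 (0.0617). With a difference between 2 groups of 3 pools, this measure mostly reads the size of that difference on the log2(TPM + 1) scale. For members near 1 TPM in a group, such as Mxi1 and Mxd3, a like value there need not be a like ratio in TPM. Kynu measured 10.4 to 13.3 TPM in GC and 20.2 to 22.6 TPM in naive pools. Mxi1 averaged 0.693 and 2.01 TPM, a ratio of 2.89.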

How the data were processed

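RNA from sorted GC and naive B cells was prepared with the NEBNext Ultra kit and sequenced on an Illumina HiSeq. Per the labels and the methods, the authors used CASAVA 1.8, FastQC, cutadapt 1.9 and RSEM 1.2.25 on the NCBIm38 v75 transcriptome, and deposited FPKM values with 2 decimals for each library. The submitters' processing notes also name edgeR with no role. Each FPKM column was rescaled to sum to 1000000 (TPM), which corrects for differing column totals but keeps the shares of very abundant transcripts. Low values did not resolve into whole reads (76.4% to 79.6% lay within 0.15 of one), so no count test was run and the depths are approximate. Genes that reached 1 TPM in 3 or more pools were tested with limma 3.58.1 in R 4.3.3 (trended empirical Bayes on log2(TPM + 1), GC against naive, 3 pools each, no block), with Benjamini-Hochberg adjustment over 12785 genes and calls at 0.05, two-sided. Replicates are pools of mice, and it is not stated whether a GC and a naive pool share mice. The p-values set the group difference against the spread between pools of a group, moderated over all tested genes. The test was checked on simulated data. Symbols came from the NCBIM37 annotation and RefSeq synonyms, and 188 of 192 listed genes matched. Members and lists were chosen with earlier results of these data known. All members are named, and from each list up to 3 called genes with the largest rises, 3 with the largest falls and 2 not called with the smallest adjusted p. Some items that these rules name are not reported here. Alternatives changed the pseudocount, filter, scaling, trend, block and each pool in turn. Python 3.11.15 made tables and figures.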

Additional observations from a re-analysis of the deposited data

How the results depend on the processing

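Over 14 alternatives, 110 of 125 member values kept their direction and side of the threshold, 12 lost the call and 1 gained it. Another 2 changed sign, both of Mxd4, which was never called: 0.023 without GC pool 3 and 0.073 without naive pool 1, in a leave-one-out range of -0.099 to 0.073. The number of members higher in GC cells was 2 as reported but 1 on the FPKM scale, 1 under quantile scaling, 1 under median ratio scaling and 1 without the trend, and it ranged from 1 to 2 when each pool was left out, always through Max. Mnt ranged from -0.32 to -0.21 and Myc from -0.20 to -0.04 on the log2 scale. Calls that held in every alternative tested had log2 ranges of 4.63 to 5.86 for Mxd3, -1.44 to -0.74 for Mxi1, -0.60 to -0.42 for Mxd1, -0.67 to -0.50 for Mga and -0.61 to -0.48 for Mlx. The filter itself selected Mxd3 and Mxi1 for a difference, and Mxi1 was not tested at 5 TPM. The cause of the lost calls was not tested. Higher calls among MYC-activated targets ranged from 23 to 29, with 3 lower in every alternative. Of all called genes 54.1% were higher, against 50.6% on the FPKM scale, 47.8% under quantile scaling and 49.7% under median ratio scaling. Deviations from the group mean correlated weakly between pools of equal number (r = 0.083, 0.0225 and 0.0456). Between pools of unlike number r ran from -0.0746 to 0.0298. These values cannot tell whether pools of equal number share mice. The labels do not say so, and the numbers were not taken as pairs in the main fit. The replicate block gave 7960 called genes against 8392, of which 7795 were shared, and its one change among members was Mnt. Levels below about 1 TPM, as for Mycn, rest on few reads, and RNA levels say nothing of MYC protein.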

Other observations

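Zone markers give context for Myc, since the GC pools mix light and dark zone cells. Of 8 tested light zone markers 2 were higher and 4 were lower in GC than in naive pools, and their summed level was 672 to 676 TPM in GC and 1066 to 1126 TPM in naive pools. Of the light zone genes, Cd86 rose by 2.15 and Icam1 by 0.42 on the log2 scale, while Ccr6 fell by 3.86, Cd83 fell by 1.17 and Nfkbia fell by 0.75. Of 7 dark zone markers 5 were higher and 0 were lower by limma (0 also at an unadjusted p under 0.05), with sums of 1422 to 1452 TPM in GC and 408 to 504 TPM in naive pools. Plasma cell markers were mixed, with Jchain and Prdm1 higher and Irf4, Sdc1 and Xbp1 lower.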
